A study of Mus musculus with 11 samples.

Results

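Efferocytosis, the uptake of dying cells, was followed through 7 of the 27998 genes counted in every library. They were chosen by name as uptake receptors (Mertk, Axl, Tyro3 and Lrp1) and as bridging molecules (Gas6, Pros1 and Mfge8), with no threshold on a measured value. All 7 were present in each of the 11 count tables.

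Macrophages (macs) were sorted from 5 mouse tissues and profiled by droplet 3′ single-cell RNA sequencing (10x Genomics), to ask what deletion of the transcription factor ZEB2 does to each population. Brain gave microglia, colon the colonic macs (CMs), liver the Kupffer cells (KCs), lung the alveolar macs (AMs) and spleen the splenic macs (SMs). Each tissue gave 1 WT library, from CRE-negative littermates with floxed Zeb2 (Zeb2fl/fl), and 1 Zeb2KO library, from Zeb2fl/fl mice with a CRE transgene. An extra WT liver library came from CRE-negative Nr1h3fl/fl mice, so the controls of both kinds carry floxed alleles. Mice of both sexes on a C57Bl/6 background, aged 6 to 8 weeks according to the methods of the study, were used, and how many animals went into a library is not given in the sources used here. The labels name Fcgr1-cre, driven from the locus of the macrophage receptor CD64, in every Zeb2KO library, whereas the study's methods give Itgax-cre for the lung and Clec4f-cre for the liver mice. According to the study, deletion was incomplete in all tissues except the brain, so a Zeb2KO library from the colon, liver, lung or spleen mixes Zeb2-/- macs with macs that kept an allele, and a level over the whole library is that of the mixture. The sorts took Clec4F+ CD64+ F4/80+ CD45+ cells as KCs, CD11c+ SiglecF+ F4/80+ CD64+ cells as AMs, CD45int F4/80+ CD64+ cells as microglia, and CD64+ F4/80+ cells lacking Ly6C, Ly6G and SiglecF as CMs and SMs. The study reported higher Siglecf RNA in Zeb2-/- CMs and SMs. Whether the SiglecF gate left out some of these cells was not tested.

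Dying cells expose phosphatidylserine, a lipid that healthy cells keep on the inner face of the membrane. GAS6 and protein S (encoded by Pros1) are vitamin K-dependent proteins that link this lipid to the TAM receptor tyrosine kinases TYRO3, AXL and MERTK. GAS6 can engage all TAM receptors, whereas protein S, better known as an anticoagulant of plasma, acts on TYRO3 and MERTK. MFGE8, a milk fat globule protein, also binds phosphatidylserine but hands the dying cell to integrins, and LRP1 is a large receptor of many ligands that takes part in uptake together with calreticulin. Microglia, CMs, KCs, AMs and SMs all clear cells in their tissue, SMs being the macs that remove aged red blood cells.

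The stretch upstream of the start site is shown for the 4 members whose level moved most between WT and Zeb2KO libraries. ZEB2 is known to bind E-box-like DNA, so the motifs CACCT and CAGGTA were searched on both strands of the 250 bases before each start site in the RefSeq promoter table (GRCm38.p6). Neither motif contains the other. The windows lie at chr16:62854057-62854306 (plus strand) for Pros1, chr8:13494536-13494785 (minus strand) for Gas6, chr7:79149061-79149310 (minus strand) for Mfge8 and chr7:25788734-25788983 (minus strand) for Axl. They are written 5′ to 3′ on the strand of the gene, with a motif match in capitals.
Pros1: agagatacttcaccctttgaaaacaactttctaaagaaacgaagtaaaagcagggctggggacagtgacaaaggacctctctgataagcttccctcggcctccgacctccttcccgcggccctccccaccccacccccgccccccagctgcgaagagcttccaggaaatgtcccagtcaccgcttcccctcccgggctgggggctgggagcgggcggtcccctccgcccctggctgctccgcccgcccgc
Gas6: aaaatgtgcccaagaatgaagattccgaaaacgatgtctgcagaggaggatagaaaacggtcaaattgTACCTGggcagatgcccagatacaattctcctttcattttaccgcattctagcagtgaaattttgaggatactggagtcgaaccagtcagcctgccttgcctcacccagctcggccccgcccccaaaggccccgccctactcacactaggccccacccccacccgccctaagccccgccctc
Mfge8: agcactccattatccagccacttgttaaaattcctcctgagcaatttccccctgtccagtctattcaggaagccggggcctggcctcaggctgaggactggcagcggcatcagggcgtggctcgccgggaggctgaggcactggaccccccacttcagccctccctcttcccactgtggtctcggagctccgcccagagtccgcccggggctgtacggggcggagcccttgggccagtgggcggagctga
Axl: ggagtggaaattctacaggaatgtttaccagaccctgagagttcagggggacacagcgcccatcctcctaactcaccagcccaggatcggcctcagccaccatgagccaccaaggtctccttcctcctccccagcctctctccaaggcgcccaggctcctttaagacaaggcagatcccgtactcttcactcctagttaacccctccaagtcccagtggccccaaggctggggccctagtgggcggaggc
The Gas6 window held CAGGTA, read on the opposite strand, 182 bases before the start site, and the windows of Pros1, Mfge8 and Axl held neither motif. Among the other members, CACCT was found in the windows of Tyro3 (100 bases before the start) and Lrp1 (118 bases before), and the Mertk window had no match. Of 32851 windows of the same length, 46.0% held CACCT and 10.0% held CAGGTA, against 2 of the 7 members for CACCT and 1 for CAGGTA. A match is a run of letters and was not tested for binding. The windows were rich in G and C, at 64.4% for Pros1, 54.8% for Gas6, 65.2% for Mfge8 and 60% for Axl, against a median of 52.4% over all windows.

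The members lie on separate stretches of 5 chromosomes in GENCODE M21 (GRCm38/mm10). Gas6 (ENSMUSG00000031451) spans bases 13465374 to 13494490 of chromosome 8 on the minus strand and overlaps Tmem255b on the plus strand. Pros1 (ENSMUSG00000022912) runs from 62854307 to 62929346 of chromosome 16, Mfge8 (ENSMUSG00000030605) from 79133768 to 79149060 of chromosome 7 and Axl (ENSMUSG00000002602) from 25757273 to 25788705 of the same chromosome. Mertk (ENSMUSG00000014361) lies at 128698956 to 128802894 of chromosome 2 with an antisense gene (Gm14011) and a small nucleolar RNA (Gm23172) inside its bounds, Tyro3 (ENSMUSG00000027298) at 119797733 to 119818104 of chromosome 2, and Lrp1 (ENSMUSG00000040249) at 127538161 to 127621148 of chromosome 10 with the antisense gene Gm16217. Whether the counting used strand is not given in the sources used here, so reads of Gas6, Mertk and Lrp1 and of these partners may share a count.

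The libraries held 3097 to 7703 cell barcodes and 11133411 to 47400786 unique molecular identifiers (UMIs, 1 per captured RNA molecule), with a median of 2108.5 UMIs per barcode in WT SMs and 8754 in WT CMs. Levels are given as CPM, a gene's UMIs over all kept cells of a library per 1000000 UMIs of those cells, with exact Poisson 95% intervals that cover counting error only. Clusters of other cell types were left out, up to 22.2% of cells in the WT spleen library and none in brain. The summed markers of microglia reached 22277 CPM in WT microglia and those of KCs 15502 CPM in WT KCs. Those of AMs reached 9458 CPM in WT AMs and those of SMs 25391 CPM in WT SMs. The Zeb2KO libraries had 14667, 7089, 22520 and 22733 CPM in the same order. The higher AM sum was mostly Chil3, which went from 5761 to 20630 CPM, while Siglecf of the same list went from 126 to 69.3 CPM. The list for CMs was no guide since its C1qa was also high in microglia. Pairs of libraries shared 14 to 76 barcode sequences, 0.40% to 1.45% of the smaller library. Zeb2 itself was counted at a higher level in each Zeb2KO library than in its WT library (1747 against 475 CPM in microglia, 778 against 387 CPM in KCs). These 3′ reads lie outside the floxed part and therefore check nothing about the deletion. A summed level cannot tell fewer cells with a transcript from less RNA per cell.

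Among the receptors, Mertk was seen in all 5 WT populations and was lowest in CMs. Its level was 642 CPM (625 to 660) in WT SMs, 266 CPM (260 to 272) in WT AMs, 246 CPM (238 to 255) in WT microglia, 178 CPM (173 to 183) in WT KCs and 20.8 CPM (19.5 to 22.2) in WT CMs. The highest exceeded the lowest 30.9-fold. AMs, microglia and KCs were neighbours that differed by less than 2-fold, which is near the 1.5-fold by which the Nr1h3fl/fl WT KC library (266 CPM) exceeded the Zeb2fl/fl one. In the Zeb2KO libraries Mertk stood at 587 CPM in SMs, 145 CPM in AMs, 199 CPM in microglia, 171 CPM in KCs and 23.6 CPM in CMs. None of these differed from its WT library by 2-fold.

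Axl, the TAM receptor that GAS6 binds most tightly, had the widest spread of the receptors. It was highest in WT SMs at 1325 CPM (1300 to 1350), followed by KCs at 542 CPM (532 to 551) and AMs at 537 CPM (529 to 546), whose intervals overlapped, and CMs at 128 CPM (125 to 132). WT microglia had 8.03 CPM (6.52 to 9.77), 165-fold below SMs. The Zeb2KO libraries read 1042 CPM in SMs, 404 CPM in KCs, 360 CPM in AMs and 64.9 CPM in CMs, each below its WT library. Microglia went the other way, from 8.03 to 28.8 CPM (26.3 to 31.5). The highest Axl in microglia was thus still below the lowest Axl of any other tissue.

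**Figure D1:**
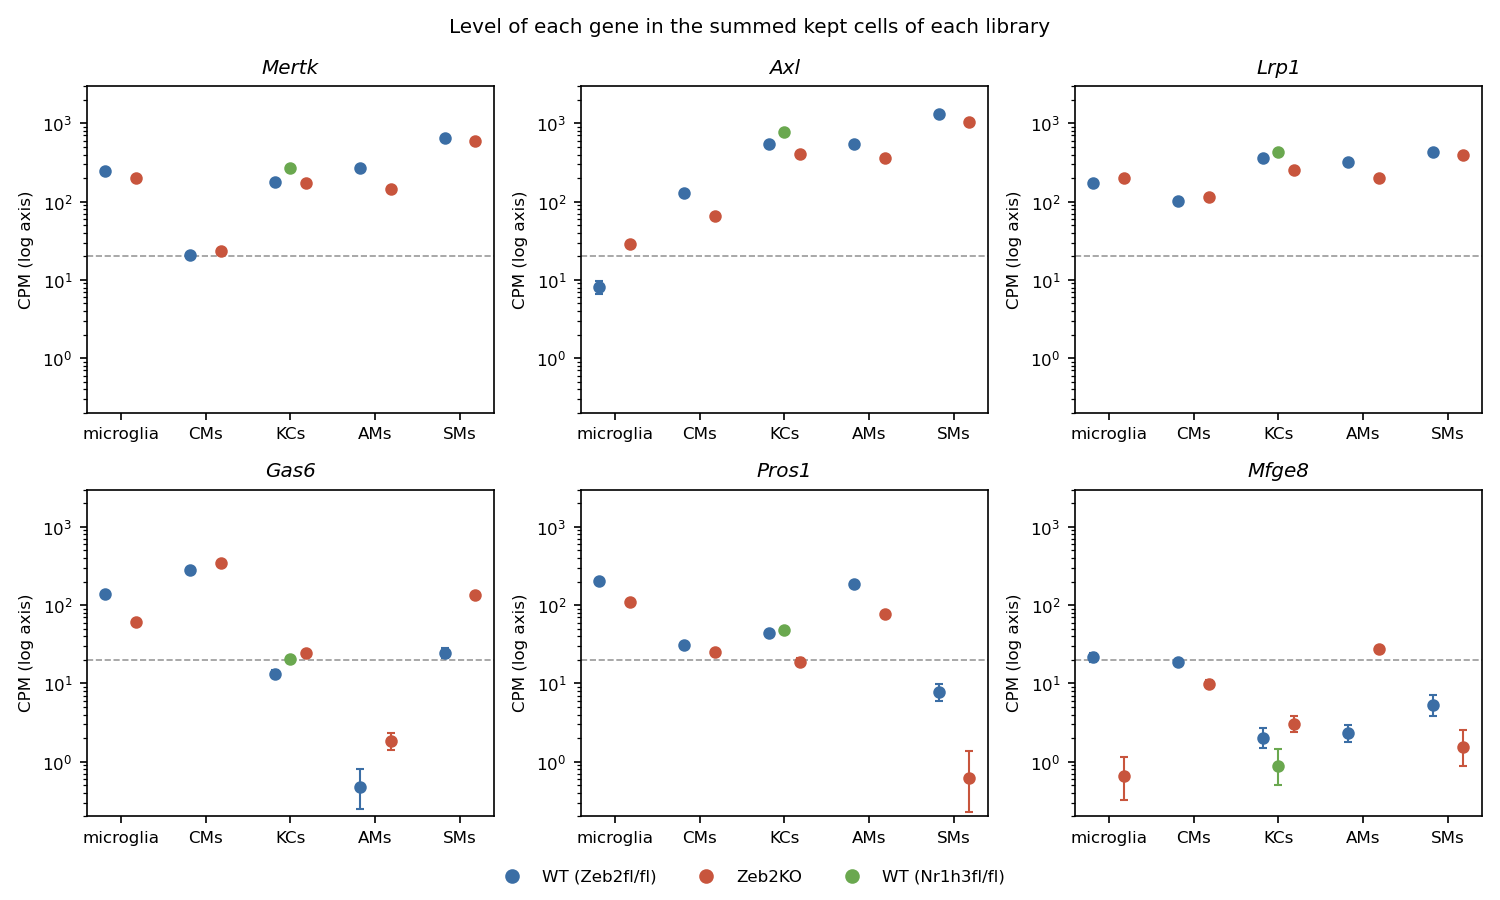
Level of 6 members in each library, in CPM on a log axis, with 95% Poisson intervals that are often smaller than the point. Blue points are WT (Zeb2fl/fl), red points Zeb2KO and green points the WT Nr1h3fl/fl KC library, and the dashed line marks 20 CPM, the level a gene had to reach in 1 library of a pair to be considered. Axl runs from 8.03 CPM in WT microglia to 1325 CPM in WT SMs, and Gas6 from 0.47 CPM in WT AMs to 284 CPM in WT CMs.

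Tyro3, the third TAM receptor and the one best known from neurons, was at 0 to 2 UMIs in every library of kept cells. A count of 3 UMIs would have been 0.07 CPM in WT CMs, the most deeply counted library, and 0.37 CPM in WT SMs, the shallowest, so levels below these were not detectable. No fold is given for Tyro3. Lrp1 was the most even member. It was counted at 436 CPM (422 to 451) in WT SMs, 361 CPM (353 to 368) in WT KCs, 318 CPM (311 to 325) in WT AMs, 171 CPM (164 to 178) in WT microglia and 102 CPM (99.5 to 106) in WT CMs, a 4.26-fold range in which each neighbour lay within 2-fold of the next. In the Zeb2KO libraries its level was 396 CPM in SMs, 251 CPM in KCs, 201 CPM in AMs, 198 CPM in microglia and 113 CPM in CMs.

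The bridging molecules were divided between tissues in another way. Gas6 was highest in WT CMs at 284 CPM (279 to 289), followed by microglia at 139 CPM (132 to 146), SMs at 24.6 CPM (21.3 to 28.2) and KCs at 13.1 CPM (11.7 to 14.7), and WT AMs had 13 UMIs in 27444872, or 0.47 CPM (0.25 to 0.81). Of the neighbours in this order, SMs and KCs were closest, at 1.87-fold, and the ends were 599.5-fold apart. Pros1 was highest in WT microglia at 206 CPM (198 to 214) and AMs at 187 CPM (182 to 193), a difference of 1.10-fold, then KCs at 43.5 CPM (40.9 to 46.2), CMs at 30.7 CPM (29.0 to 32.4), 1.42-fold lower, and SMs at 7.70 CPM (5.92 to 9.86). AMs, nearly without Gas6, were thus among the highest in Pros1, and SMs, the highest in Mertk and Axl, were the lowest in Pros1. Mfge8 was scarce in all WT macs, with 21.5 CPM (19.0 to 24.2) in microglia, 18.5 CPM (17.3 to 19.9) in CMs, 5.26 CPM (3.81 to 7.08) in SMs, 2.30 CPM (1.76 to 2.94) in AMs and 2.02 CPM (1.5 to 2.68) in KCs. Its intervals overlapped between microglia and CMs and between AMs and KCs.

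Between the genotypes 7 values were called, 6 of them of ligands (10 considered over the tissues) and 1 of a receptor (15 considered), and the difference between the roles was not tested. The alternatives tried ended 3 of the ligand calls, those of Pros1 in KCs and AMs and of Mfge8 in AMs. A call required a log2 ratio (CPM plus 1, Zeb2KO over WT) of 1 or more in size and a level of 20 CPM in either library. With 1 library on each side this is a rule of size with no replicate check and no p-value. In microglia 3 of 6 members considered were called, against 8.34% of all 5922 genes considered. In KCs 1 of 5 was called, against 4.49% of genes, in AMs 2 of 5, against 11.7%, and in SMs 1 of 4, against 3.16%. In CMs 0 of 5 members were called, against 1.58% of genes. Between the WT KC libraries, where no Zeb2 was deleted, 0 of 5 members and 1.33% of genes passed the same rule. Over the tissues, 7 of 25 values were called and 3 of them were higher in Zeb2KO. Among the calls, Axl and Mfge8 in microglia, Pros1 in KCs and Mfge8 in AMs reached 20 CPM in 1 library of the pair only. For these, being considered depended on the same difference as being called, so the counts beside the shares are a description only.

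**Figure D2:**
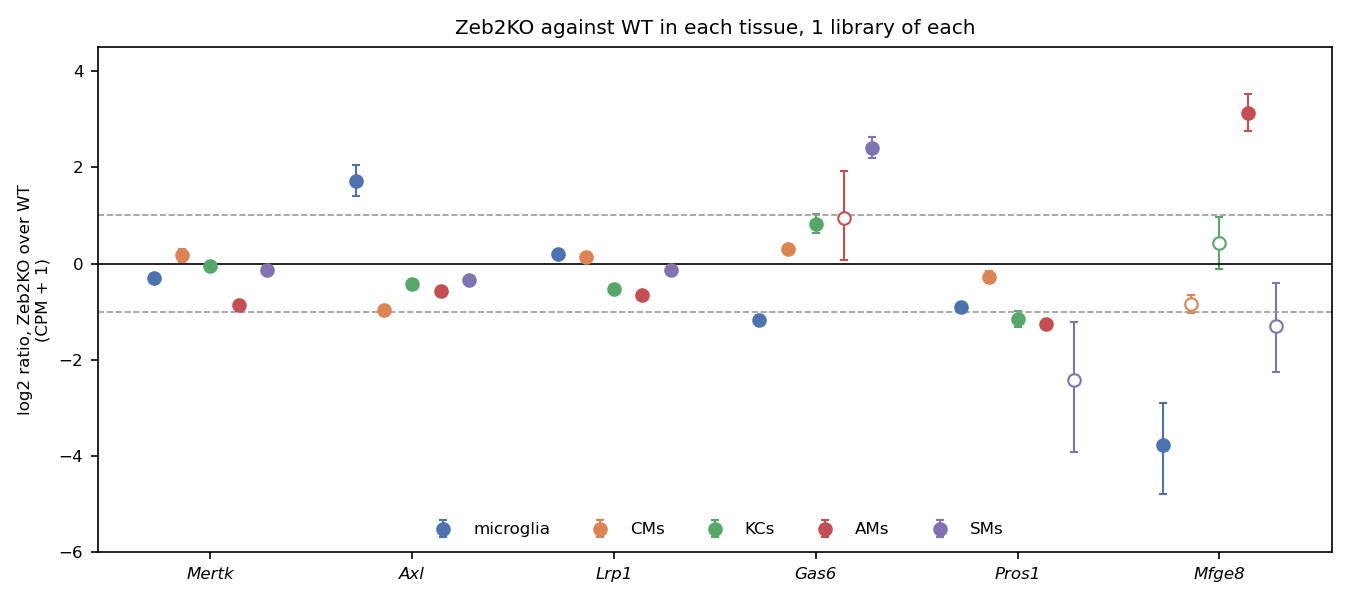
Log2 ratio of CPM plus 1, Zeb2KO over WT, for 6 members in 5 tissues (colours). Bars are 95% counting intervals, dashed lines mark 2-fold, and open circles are genes under 20 CPM in both libraries. All 5 Pros1 points lie below 0, from -0.29 in CMs to -2.42 in SMs, while Gas6 runs from -1.17 in microglia to 2.40 in SMs and Mfge8 from -3.77 in microglia to 3.13 in AMs.

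Pros1 was lower in the Zeb2KO library of every tissue. It went from 206 to 110 CPM in microglia (log2 ratio -0.90), from 187 to 78.0 CPM in AMs (-1.25), from 43.5 to 19.0 CPM in KCs (-1.15), from 30.7 to 24.96 CPM in CMs (-0.29) and from 7.70 to 0.62 CPM in SMs (-2.42, on 63 and 6 UMIs, under the 20 CPM limit). The calls were those in KCs and AMs, and each ended under an alternative. The AM ratio was -0.97 with TMM scaling (edgeR's trimmed mean of M-values), and the KC ratio was -0.69 with no clusters of other cell types left out. Against the Nr1h3fl/fl WT library, which had 47.9 CPM, the KC ratio was -1.29. Over the 5 pairs, with tissue as a block, edgeR's quasi-likelihood test gave a log2 fold change of -1.13 ± 0.35 (SE) and a Benjamini-Hochberg adjusted p of 0.329. No gene passed in this test (0% of 12123, lowest adjusted p 0.0890, with 1440 genes at an unadjusted p under 0.05). DESeq2 with the same design called 356 genes, or 2.94%, Pros1 among them at -1.23 ± 0.36 (SE) and an adjusted p of 0.0291, and no other member. The exact sign-flip permutation test over the pairs gave a mean log2 ratio of -1.20 ± 0.78 (SD, n = 5) and a two-sided p of 0.0625, the smallest that 5 pairs can give.

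No other member passed edgeR or DESeq2 across the tissues, and Pros1 passed DESeq2 alone. The edgeR log2 fold changes over the 5 pairs were -0.18 ± 0.12 (SE) for Mertk, -0.10 ± 0.41 for Axl, -0.14 ± 0.15 for Lrp1, 0.83 ± 0.54 for Gas6 and -0.56 ± 1.23 for Mfge8, with adjusted p from 0.559 (Gas6) to 0.931 (Axl). The exact sign-flip permutation p ran from 0.25 (Mertk) to 0.8125 (Axl). The large errors of Gas6 and Mfge8 go with opposite directions in single tissues.

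Gas6 was higher in the Zeb2KO SMs and lower in the Zeb2KO microglia. In SMs it went from 24.6 to 134 CPM (127 to 141), a log2 ratio of 2.40 that stood above 99.5% of genes considered. In microglia it went from 139 to 61.1 CPM (57.4 to 64.9), or -1.17. CMs, with the most Gas6, had 284 and 348 CPM (0.29) over all kept cells, and the clusters of both libraries spanned a wider range than this. KCs had 13.1 and 24.1 CPM (0.83), but the Nr1h3fl/fl WT KCs already had 20.4 CPM, and against them the ratio was 0.23. AMs had 0.47 and 1.82 CPM and were below the limit in both libraries.

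Mfge8 showed the largest ratios of any member, in opposite directions. In microglia it went from 21.5 CPM (265 UMIs) to 0.65 CPM (11 UMIs, interval 0.32 to 1.16), a log2 ratio of -3.77. In AMs it went from 2.30 CPM (63 UMIs) to 27.9 CPM (1040 UMIs, interval 26.2 to 29.6), or 3.13. The remaining populations, CMs (18.5 and 9.92 CPM), KCs (2.02 and 3.04 CPM) and SMs (5.26 and 1.56 CPM), were under 20 CPM on both sides and were not considered.

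Of the receptors, Axl in microglia (log2 ratio 1.72) was the only one called in any tissue, and CM Axl (-0.97, from 128 to 64.9 CPM) came just short of the limit, with 0.51% of the genes considered at or below its ratio and their median at 0.05. The ratios of Mertk, Axl and Lrp1 in AMs were -0.87, -0.58 and -0.66. There the median of all genes considered was itself -0.31, and with TMM scaling, which brings that median close to 0, they were -0.58, -0.29 and -0.37. Under TMM the AM calls split into 368 higher of 550 genes, in place of 253 of 679. In SMs the receptors were at -0.13, -0.35 and -0.14, and in KCs at -0.06, -0.42 and -0.52. Between the WT KC libraries the same genes differed by 0.58, 0.51 and 0.26, more than the KC values of Mertk and Axl and less than that of Lrp1. Against the Nr1h3fl/fl WT library the KC ratios were larger, at -0.64, -0.93 and -0.78, and still short of 2-fold.

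Shares of cells with a transcript were compared at equal depth. Each cell was thinned to 1000 UMIs, and cells below this (267 WT SMs) were left out. Gas6 was then found in 2.40% (exact 95% interval 1.88 to 3.02) of 2957 WT SMs and in 13.4% (12.2 to 14.7) of 3000 Zeb2KO SMs, and unthinned in 5.68% and 31.1% at median depths of 2216 and 2711 UMIs. B cells of the same libraries, a type not known for Gas6, had Gas6 in 0.33% and 1.06% of cells after thinning, and unthinned in 0.95% and 2.65% at median depths of 2085 and 3070 UMIs. Mfge8 was found in 2.19% (1.68 to 2.80) of WT and 0.03% of Zeb2KO microglia after thinning, and in 8.66% and 0.34% before it. Pros1 went from 17.0% (16.1 to 17.9) to 8.64% (7.95 to 9.36) of AMs and from 4.27% (3.67 to 4.95) to 2.0% of KCs, with 0.70% and 0.75% of liver B cells. Mfge8 in AMs went from 0.19% to 1.31% (1.04 to 1.63) after thinning and from 0.83% to 6.73% before it.

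For the receptors the share in B cells was not small in liver. Axl was found in 41.7% of WT KCs after thinning but also in 23.8% (17.1 to 31.6) of 143 WT liver B cells, and Lrp1 in 30.04% and 14.7%. In the 47 cells left out of this library as hepatocytes Axl was in 51.1% (36.1 to 65.9), an interval that includes the KC share. In spleen Axl was in 73.5% (71.9 to 75.1) of WT SMs and 14.2% (11.5 to 17.2) of B cells, Mertk in 46.5% and 4.01%, and Lrp1 in 35.6% and 4.17%. The cells left out of the WT spleen library as erythroid (156 after thinning) were close to the SMs, with Axl in 69.9% (62.0 to 77.0), Mertk in 40.4% and Lrp1 in 25.6%. Over both spleen libraries the mean log2 fold of macrophage markers against the other cells was -0.81 in this cluster and -2.92 in the B cell cluster. At least 1 UMI of a TAM receptor was found at 1000 UMIs in 85.6% of WT SMs, 55.1% of AMs, 51.0% of KCs, 22.5% of microglia and 14.2% of CMs. The Zeb2KO values were 77.4%, 41.7%, 44.4%, 20.04% and 7.63%. Gas6 or Pros1 was found in 29.6% of WT microglia, 27.6% of CMs, 17.0% of AMs, 5.49% of KCs and 3.28% of SMs, and in 15.8%, 31.5%, 8.72%, 4.30% and 13.5% of Zeb2KO cells. These shares count cells with a UMI and hold no correction for free RNA. In the Zeb2KO colon library a left-out cluster of 23 cells, scored as B cells but led by Fabp4, Plvap and Flt1, had Gas6 in 21.7% (7.46 to 43.7) after thinning, an interval that includes the 29.6% of kept CMs. Unthinned, the shares were 56.5% and 78.5% at median depths of 4495 and 8561 UMIs. The Gas6 share of CMs could thus not be told from that of these cells, and the brain and lung libraries held no B cell cluster large enough for such a share. Cells with a UMI of a TAM receptor and of Gas6 or Pros1 were 2.87% of WT and 10.4% of Zeb2KO SMs, 6.47% and 3.15% of microglia, 9.64% and 4.03% of AMs, 2.96% and 1.95% of KCs, and 2.995% and 2.47% of CMs. The Zeb2KO share was thus higher in SMs and lower in the other tissues, and in CMs the exact binomial intervals overlapped. These intervals count cells of 1 library and hold no spread between animals. Pairs of a TAM receptor with Gas6 or Pros1, each in at least 5% of cells, were set against the share expected of independent genes. The ratio ran from 0.70 (Axl with Gas6, WT CMs) to 1.14 (Axl with Pros1, Zeb2KO AMs).

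Clusters were formed without the members, so their levels can be compared between clusters. A cluster was called apart when its share of Zeb2KO cells was at least 9 times its share of WT cells, and such clusters held 99.6% of Zeb2KO microglia, 90.5% of AMs, 77.0% of SMs, 75.8% of KCs and 22.6% of CMs. Gas6 in SMs was 76.7 to 174 CPM in the 7 Zeb2KO clusters and 10.4 to 43.3 CPM in the 5 WT clusters. The counting intervals of the nearest clusters overlapped (35.1 to 146 and 19.8 to 82.1 CPM). Zeb2KO SM clusters apart from WT had 136 CPM together and the other Zeb2KO clusters 125 CPM, against 24.6 CPM in WT. Both were near the 134 CPM of the whole Zeb2KO library. All clusters of a genotype in a tissue came from 1 library, so such ranges repeat the difference between the libraries and add no support to it. For how many other genes the cluster levels of the genotypes lie apart was not counted. Gas6 in microglia was 36.5 to 70.7 CPM in 5 Zeb2KO clusters and 114 to 156 CPM in 3 WT clusters, with intervals of the nearest clusters at 50.7 to 95.9 and 80.2 to 157 CPM. Mfge8 in microglia was 0.21 to 5.17 CPM in Zeb2KO clusters and 9.24 to 22.6 CPM in WT clusters, and the nearest intervals overlapped here too (1.07 to 15.1 and 1.91 to 27.0 CPM).

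**Figure D3:**
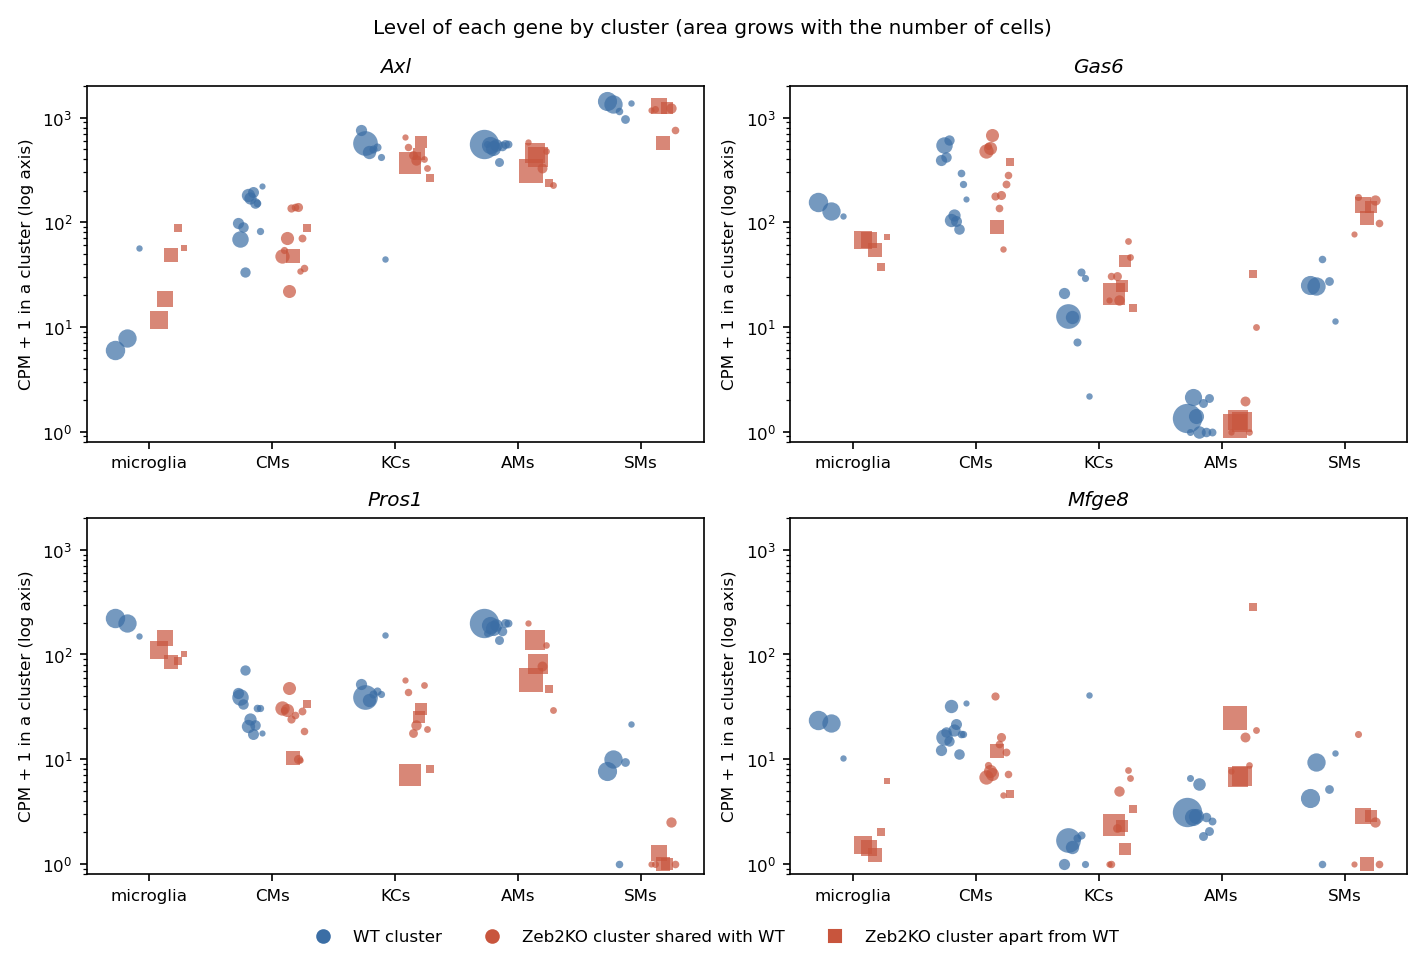
Level of Axl, Gas6, Pros1 and Mfge8 in each cluster of at least 50 cells, as CPM plus 1 on a log axis. Blue circles are WT clusters, red circles Zeb2KO cells of clusters shared with WT, red squares Zeb2KO clusters apart from WT, and the area grows with the number of cells. Gas6 of SMs lies at 76.7 to 174 CPM in all Zeb2KO clusters against 10.4 to 43.3 CPM in WT. The clusters of a genotype come from 1 library, and the nearest counting intervals overlap. In AMs 1 cluster of 220 Zeb2KO cells stands out with 283 CPM of Mfge8.

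Mfge8 in AMs and Axl in microglia were spread unevenly over clusters. In Zeb2KO AMs, 1 cluster of 220 cells, led by the complement genes C1qa, C1qb and C1qc and by MHC class II genes, had 283 CPM of Mfge8 (259 to 309) and held 48.8% of all Mfge8 UMIs, and it held 80.9% of those of Gas6. Without it and a mostly WT cluster led by sterol synthesis genes, Mfge8 was at 2.04 CPM in WT and 15.04 CPM in Zeb2KO AMs, a log2 ratio of 2.40, but both levels were under 20 CPM and the call was lost. The neutrophil markers as a list summed to 37.6 CPM in WT AMs (4 of 6 detected, Retnlg at 0) and 23829 CPM in Zeb2KO AMs (6 of 6 detected, mostly S100a8, with Retnlg at 0.13 CPM), and their part in the AM values was not tested. Axl in Zeb2KO microglia ranged from 10.7 CPM in cluster 2 to 86.1 CPM in a cluster led by interferon-induced Ifit genes, and in WT it was 55.4 CPM in a cluster of 61 cells led by Lgals3, Lpl and Cd63 against 4.98 and 6.87 CPM in the others. Without the Ifit and Lgals3 clusters Axl was at 6.45 and 25.3 CPM, a ratio of 1.82, and was still called. No cells were left out of the brain libraries for carrying markers of other types.

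Pros1 in KCs also depended on which cells were counted. In Zeb2KO KCs it was 13.2 CPM (11.6 to 14.9) in the clusters apart from WT and 35.4 CPM (31.1 to 40.2) in the rest, against 43.5 CPM in WT. A cluster led by Alox15, Prg4, Saa3 and Fn1, with 65 WT, 42 Zeb2KO and 0 Nr1h3fl/fl cells, had 154 CPM (129 to 183) of Pros1 in WT and 39.7 CPM of Mfge8, or 12.5% and 69.4% of the WT UMIs of these genes. Its Mertk and Axl were 42.1 and 43.2 CPM. Leaving out this cluster and a dividing one gave a Pros1 ratio of -1.27. The cells left out of the liver libraries as endothelial carried 124 CPM of Pros1 in the WT and 112 CPM in the Zeb2KO library, and were 104 and 374 cells. They also carried Mertk at 178 and 179 CPM and Axl at 361 and 286 CPM. Kept KCs had 178 and 171 CPM of Mertk and 542 and 404 CPM of Axl. Whether the Pros1 of these clusters came from endothelial cells was not tested. Endothelial markers summed to 107 CPM in the kept WT KCs and 149 CPM in the kept Zeb2KO KCs, against 4953 CPM and 4287 CPM in the endothelial clusters.

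CMs, without any call over the whole library, varied widely between their clusters. Gas6 ran from 84.2 to 607 CPM over 11 WT clusters and from 54.5 to 678 CPM over 12 Zeb2KO clusters, and cluster 3 was the highest in both. Axl was lowest in that same cluster, at 32.2 CPM in WT and 21.0 CPM in Zeb2KO, and highest in WT cluster 13 at 222 CPM (186 to 263). Across clusters, which share libraries and depth, Spearman's rho of Axl and Gas6 was -0.75 in WT (n = 11) and -0.20 in Zeb2KO (n = 12), given as a description. The Zeb2KO clusters apart from WT (872 cells, 746 of them in a cluster led by Ms4a1, a gene by which the study recognised Zeb2-/- macs) had 128 CPM of Gas6 (120 to 136), against 411 CPM in the other Zeb2KO cells and 284 CPM in WT. Pros1 was at 12.4, 28.5 and 30.7 CPM and Axl at 52.3, 68.5 and 128 CPM in the same order. All 3 values depended on which cells the clustering set apart. The rest of the cells apart were in a cluster led by Iigp1 and Cxcl9. At a resolution of 0.4 in place of 0.8 the Ms4a1 cells joined a mixed cluster. Only a cluster led by Iigp1 and Cxcl9 was then apart, with 123 Zeb2KO cells (3.18%). Its Gas6 was at 394 CPM and its Pros1 at 34.3 CPM, above WT (30.5 CPM). Its Axl was at 86.7 CPM, above the other Zeb2KO cells (64.0 CPM). These values belong to other cells, so they cannot say whether the levels of the Ms4a1 cells are stable. At 1.2 a cluster led by Ms4a1 was among those apart. Gas6 of the cells apart was then at 127 CPM, Pros1 at 12.3 CPM and Axl at 51.3 CPM. Fibroblasts left out of the CM libraries had 276 and 257 CPM of Mfge8 and 307 and 329 CPM of Gas6 in WT and Zeb2KO. The fibroblast markers summed to 125 and 88.9 CPM in kept CMs against 19312 and 15215 CPM in the fibroblasts, and their part in the CM values was not tested.

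**Figure D4:**
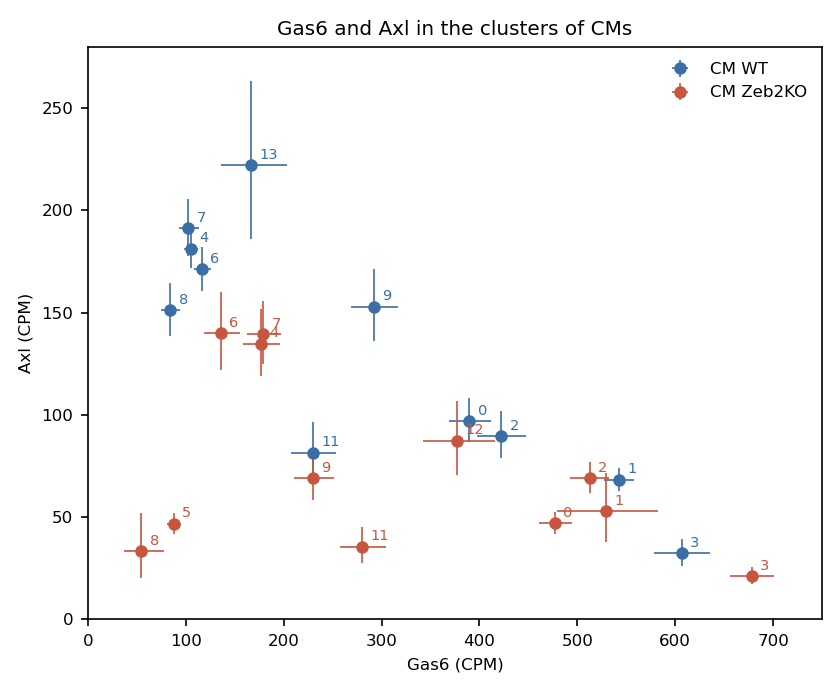
Gas6 against Axl in the clusters of CMs, in CPM with 95% Poisson intervals. Points are clusters with their number, blue for WT and red for Zeb2KO. The WT points fall from high Axl with low Gas6 to cluster 3, with 607 CPM of Gas6 and 32.2 CPM of Axl.

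The genes whose log2 level was most like that of a member across the 11 libraries were Lrif1 for Mertk (Pearson r = 0.98 among 8027 genes), Gm13212 for Axl (0.98), Gm16586 for Lrp1 (0.97), Man1a for Gas6 (0.95) and Aamdc for Pros1 (0.93). Mfge8 had the weakest match, Cd63 at 0.81. These are descriptions over libraries of which each pair shares a tissue. The next in line were Med1 and Mbtps2 for Mertk, Soat1 and Pira2 for Axl, Nck1 and Sppl2a for Lrp1, Rtn1 and Slc11a2 for Gas6, Tsg101 and Slc16a3 for Pros1, and Cd14 and Sptssa for Mfge8.

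Further genes of the pathway were followed in 7 lists of 70 genes in all. Of those considered, 1 was higher and 6 lower of 42 in microglia, 2 and 2 of 45 in KCs, 6 and 3 of 43 in AMs, 1 and 3 of 47 in SMs and 0 of 47 in CMs. These are 16.7%, 8.89%, 20.9%, 8.51% and 0%, beside 8.34%, 4.49%, 11.7%, 3.16% and 1.58% of all genes considered. Their median log2 ratios of -0.16, -0.06, -0.09, -0.04 and 0.04, in the same order, stood beside medians of all genes of -0.09, 0.02, -0.31, -0.02 and 0.05. The list for gamma-carboxylation and shedding had 8 genes, some of which mature GAS6 and protein S or cut MERTK. This list and those for nuclear receptors tied to Mertk (7) and for feedback of TAM signalling (6) had no call in any tissue. Only 2 to 6 genes of a list were considered in a tissue.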

How the data were processed

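Cells were sorted, captured with the 10x Genomics 3′ kit and sequenced on a NextSeq500 (KCs, AMs) or a HiSeq (microglia, CMs, SMs). Each pair thus shared its instrument, which separates tissues. Per the labels and the methods of the study, the authors ran Cell Ranger, which maps reads with STAR, on mm10 and deposited raw UMI counts per gene and barcode, the unit used here. The authors' own later filtering is not part of these tables. The members were named by function, but they and the lists were chosen with earlier results of these data known.

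Barcodes more than 3 median absolute deviations from their library in UMIs, genes or, upwards, mitochondrial share were removed (4.66% to 9.22%). Cells of each tissue were clustered with scanpy 1.11.5 and leidenalg 0.10.2 (2000 variable genes without members and pathway lists, 30 components, 15 neighbours, resolution 0.8), and clusters led by the markers of another cell type were left out. Some kept clusters still held B cell genes (SMs) or endothelial genes (KCs), and a second pass was tried. Scrublet called at most 0.0566% of cells of a library as doublets, so its calls were not used, and leaving out the highest 5% of scores was tried instead. UMIs were summed per library and scaled to CPM, with a pseudocount of 1 CPM in log2 ratios.

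The sums held 8176990 to 42934717 UMIs. The study used littermates, so WT and Zeb2KO were paired by tissue. For the shift over the 5 pairs, edgeR 4.0.16 was run in R 4.3.3 (beside limma 3.58.1) after filterByExpr and TMM scaling, with tissue as a block, and DESeq2 1.42.0 was the alternative. Each SE given for edgeR is the size of the log2 fold change over the square root of the F statistic. The SE of DESeq2 comes from its own model. The single value tests were exact sign-flip permutations. The libraries are separate samples in the labels, but nothing says whether each is 1 animal, so p-values measure the spread between tissues. The named genes were all members, the 3 genes most alike each member, and, from the pathway lists, genes called in 3 or more tissues and the called gene of a list with the largest ratio in a tissue. Both tests and the thinning were tested on simulated data. Python 3.11.15 with numpy 2.4.6, scipy 1.17.1, pandas 2.3.3 and matplotlib 3.10.9 was used.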

Additional observations from a re-analysis of the deposited data

Results flagged for a closer look

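Axl in microglia, with a log2 ratio of 1.72, lay far from the ratios of the other 4 tissues, which ran from -0.97 to -0.35. This gap was above Dixon's limit at 5 values, which chance passes in about 1 of 20 groups. That rate does not hold here, since Axl was picked out after a search over the members and each value is 1 pair of libraries. Axl in microglia also reached 20 CPM in the Zeb2KO library only.

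Gas6 moved past 2-fold in opposite directions, at 2.40 in SMs and -1.17 in microglia. Mfge8 did the same, at 3.13 in AMs and -3.77 in microglia. With 1 library per group the difference between the tissues was not tested in either case.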

How the results depend on the processing

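With 1 library per group, differences within a tissue have no replicate check, and genes near 20 CPM or below rest on few UMIs. Under the alternatives tried, 219 of 243 recomputed log2 ratios moved by less than their counting interval and 24 moved by more, and 0 called ratios changed sign. Shares of cells with a UMI were less stable, as 59 moved and 18 did not. Among the levels per library 49 moved and 105 did not, and among those by cluster 15 moved and 111 did not. Of the 54 recomputed counts of called members, 50 stayed within 1.5 times, but in KCs the count of 1 hid a change of member: with no clusters left out, or with all deposited barcodes, Pros1 was lost and Gas6 was called in its place. The exceptions were AMs, where 1 member was called in place of 2 with TMM factors (Pros1 then at -0.97) or with small clusters rich in a changed member left out (Mfge8 then under 20 CPM), an alternative chosen after seeing the data, and SMs, where 3 were called in place of 1 with a floor of 5 CPM or with no floor, Pros1 and Mfge8 being added by construction. Across the 5 pairs DESeq2 called 1 member (Pros1) where edgeR called 0. Without the liver pair, the colon pair and the brain pair in turn, the common log2 fold changes near 0 turned sign: Axl, at -0.10 with all pairs, was 7.52e-04 without liver, 0.14 without colon and lowest, at -0.53, without brain, and Mfge8, at -0.56, was 0.39 without brain and lowest, at -1.52, without lung. The edgeR count of members was 0 in each leave-one-out run, and the log2 fold change of Pros1 ran from -1.37 without the colon pair to -0.84 without the spleen pair, with adjusted p from 0.346 to 0.568. Gas6, at 0.83, was 0.41 without the spleen pair and 1.33 without the brain pair. The microglial Mfge8 ratio of -3.77 was -2.23 with a pseudocount of 5 CPM and -4.85 with 0.1 CPM, and the KC ratio of Gas6 reached 1.02 with no clusters left out. No paired analysis was possible because the labels give no replicate numbers, beyond the tissue block itself, which was already in the test. The cause of these differences was not tested where no construction is named.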

Other observations

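Several genes of the wider pathway lists were called, among them other receptors for dying cells. Cd300lf, a lipid-binding receptor, went from 2.76 to 53.4 CPM in microglia (log2 ratio 3.85). It was the only 1 of 9 such receptors considered there that was called higher, and 4 were called lower (Stab1, Itgav, Scarb1 and Cd14). Their median ratio was -0.68, beside -0.09 for all genes. Timd4, a phosphatidylserine receptor and KC marker, went from 557 to 133 CPM in KCs (-2.06). A cluster with 12.6% of Zeb2KO KCs held 32.1% of the Timd4 UMIs of that library, at 410 CPM. The other Zeb2KO KCs were at 101 CPM. Cd14 went from 142 to 692 CPM in AMs (2.27) and from 205 to 82.6 CPM in SMs (-1.30), and it was also called lower in microglia. In WT SMs a cluster of 1412 cells (43.8%) held 70.6% of the Cd14 UMIs, at 321 CPM. The other WT SMs were at 109 CPM. C1qa, an opsonin subunit, was at 0.07 CPM in WT and 60.5 CPM in Zeb2KO AMs, on 2 UMIs in WT, and C1qb and C1qc were called with it. A cluster of 220 Zeb2KO AMs (3.52%) held 97.6% of the C1qa UMIs, and the other Zeb2KO AMs were at 1.55 CPM.

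Cx3cr1, the receptor for the find-me signal fractalkine, went from 2923 to 926 CPM in microglia (-1.66) and from 7.56 to 72.9 CPM in KCs (3.11), and was called lower in SMs. In KCs a cluster led by Cx3cr1, Ccr2 and Cd207 held 42.6% of its UMIs in WT and 44.1% in Zeb2KO. This cluster was 1.14% of WT and 12.8% of Zeb2KO KCs, with 227 and 210 CPM of Cx3cr1, and the other KCs were at 4.40 and 48.2 CPM. Abca1, a lipid exporter tied to uptake, went from 89.4 to 37.3 CPM in microglia (-1.24). Arhgap25, a Rac regulator of engulfment, went from 71.6 to 30.7 CPM in AMs (-1.19). The median of all genes considered in AMs was itself -0.31, and this ratio is given without TMM scaling. Lilrb4a, an inhibitory receptor, went from 203 to 480.5 CPM in AMs (1.24), and Gpr132, a receptor for lysophospholipid, from 11.4 to 84.05 CPM in SMs (2.78), where a cluster with 23.1% of Zeb2KO SMs held 79.2% of its UMIs. Cd14 and Cx3cr1 were the genes of these lists called in 3 tissues. None of these ratios has a replicate check.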
